A study of Homo sapiens with 32 samples.

Results

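The SR proteins and the related TRA2 proteins were described in intestinal epithelial cells grown under 3 culture conditions. They comprised 10 genes, namely TRA2A and TRA2B, SRSF1, SRSF5 and SRSF6, SRSF2, SRSF3 and SRSF7, SRSF11 and SRSF12. These 10 genes were selected on earlier values from the same libraries, in which TRA2B was lower in coculture and SRSF12 was high in the HIF1A-null line only. Differences between coculture and monoculture and between the HIF1A-null line and the other lines are therefore given for them as descriptions, without a test. Each of the 10 had 1 row in a table of 60107 genes, and all 10 were among the 12849 genes that passed the filter on low counts. Gene spans below are from the GENCODE release 29 annotation of GRCh38.

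SR proteins bind short enhancer motifs in exons through RNA recognition motifs and recruit the splicing machinery through a domain rich in arginine and serine. Kinases of the SRPK and CLK families phosphorylate that domain, which sets where the proteins sit in the nucleus and whether they engage the spliceosome. TRA2A and TRA2B are SR-like proteins related to Transformer-2 of Drosophila, which directs sex-specific splicing. Many of these genes hold a poison exon, whose inclusion sends the transcript to nonsense-mediated decay, and through it several of the proteins limit their own amount. The gene counts used here come from the 3′ ends of transcripts, so a coding transcript and a transcript with a poison exon were not told apart.

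Caco-2 is a line of human colon adenocarcinoma cells that takes on features of enterocytes. WT cells were unmodified, e.v. cells carried lentiviral inducible Cas9 and an empty guide vector, and cl.21 cells carried the same Cas9 with a guide against HIF1A, the gene of the oxygen-regulated subunit of hypoxia-inducible factor 1. The cl.21 line is 1 clone, so the edit and the clone cannot be told apart. Each line was grown in wells (2D), in the HoxBan system without bacteria (monoculture) and in HoxBan with Faecalibacterium prausnitzii (coculture), where coverslips with the cells lie in oxygenated medium above anaerobic agar. There were 3 libraries in each of these 9 groups except for WT in 2D, which had 4, so 28 libraries were compared. A further 4 single WT libraries came from HoxBan monoculture with inulin or mucin and from coculture with stool in the same media. Monoculture differs from 2D in medium, agar, oxygen and the inverted coverslip at once, and these cannot be told apart. The labels do not tell whether the libraries of 1 group are separate cultures. The tests therefore measure the spread between libraries, which may be technical.

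The libraries held 4144373 to 6686797 counts (median 4917010). The unit of level is CPM, the count scaled to a library of 1000000 after TMM, a correction for differences in library composition. HIF1A itself stood at 82.9 to 90.6 CPM in cl.21 cells in 2D, below the 148 to 180 of e.v. cells, and at 160 to 198 in cl.21 monoculture against 188 to 351 in e.v. monoculture. WT cells held 131 to 167 CPM in 2D, above cl.21 cells, and 170 to 212 in monoculture, overlapping cl.21 cells. In coculture cl.21 cells held 140 to 216 CPM, WT cells 159 to 209 and e.v. cells 247 to 306. The guide cuts far upstream of the 3′ ends that were counted, so the level of HIF1A does not check the edit. Epithelial markers were present in all 28 libraries (EPCAM at 1098 to 2180 CPM, VIL1 at 245 to 387), apart from LGALS4, which was at 0 in 9 of them. Levels were low for KRT20 (0.366 to 14.6 CPM), ALPI (1.51 to 8.40) and SI (3.50 to 22.2). CDH1, KRT8, KRT18, FABP1 and CDX2 held at least 38.1 CPM in every library. Of 12 markers of other cells, namely leukocytes, fibroblasts, endothelium, goblet and endocrine cells, 6 (PTPRC, CD3E, COL1A2, VWF, MUC2 and CHGA) were at 0 in 18 to 26 of the 28. The other 6 were counted in nearly all libraries, with COL1A1 at 12.2 to 42.1 CPM, LYZ at 4.64 to 43.9, TFF3 at 7.67 to 38.9, PDGFRB at 3.28 to 10.5, PECAM1 at 1.87 to 6.26 and CD68 at 0 to 3.78. Summed over the 12 markers, the level was 60.5 to 105 CPM in 2D and 66.6 to 110 CPM in monoculture. COL1A1 was the single gene of the 6 tested in that list to change between these cultures (log2 fold change 0.41, adjusted p = 0.0300), and its part in the results below was not tested. The mitochondrial share of the counts ran from 4.49% to 23.6% and is set beside the results it moved with.

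Promoter sequences were taken from RefSeq on GRCh38.p14 for 8 of the 10 genes, and TRA2A and SRSF2 had no entry. The 250 bases before each start were searched on both strands for ACGTG and GCGTG, the cores that hypoxia-inducible factors bind, with overlapping copies counted separately. The 8 genes had 10 promoter entries, with 2 each for SRSF7 and SRSF11, and 7 of the 10 held at least 1 copy, against 43.2% of 35116 promoters in the same table. The 2 entries of SRSF7 overlap and hold the same copy, and by gene 6 of the 8 held at least 1. SRSF11 counts among them through an entry that lies inside its annotated span (chr1:70221130-70221379). The entry at the start of that span held 0. The comparison was not adjusted for GC content, which was 52.0% to 75.6% in the 10 entries against a median of 58.0% over all promoters. Shown are the genes that the rest of the text turns on: TRA2B and SRSF12, which were chosen for their levels, and SRSF1 and SRSF3, which differed most clearly between 2D and HoxBan. Bases inside the annotated gene were left out. Capitals mark the cores, of which the stretch before TRA2B held 2 (chr3:185938137-185938264, minus strand), that before SRSF12 held 0 (chr6:89118082-89118321, minus strand), that before SRSF1 held 3 (chr17:58007347-58007496, minus strand) and that before SRSF3 held 1 (chr6:36594112-36594352, plus strand).
TRA2B: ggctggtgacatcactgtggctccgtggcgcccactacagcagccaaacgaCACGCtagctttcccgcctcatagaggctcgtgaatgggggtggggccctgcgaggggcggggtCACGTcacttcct
SRSF12: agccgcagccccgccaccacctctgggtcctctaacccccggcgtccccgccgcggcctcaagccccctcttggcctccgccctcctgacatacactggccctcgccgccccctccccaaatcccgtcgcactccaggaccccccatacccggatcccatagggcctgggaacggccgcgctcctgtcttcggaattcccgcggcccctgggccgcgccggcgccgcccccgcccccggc
SRSF1: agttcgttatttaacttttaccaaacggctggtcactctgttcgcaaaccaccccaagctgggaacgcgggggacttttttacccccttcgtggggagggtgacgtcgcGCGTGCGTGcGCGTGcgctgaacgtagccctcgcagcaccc
SRSF3: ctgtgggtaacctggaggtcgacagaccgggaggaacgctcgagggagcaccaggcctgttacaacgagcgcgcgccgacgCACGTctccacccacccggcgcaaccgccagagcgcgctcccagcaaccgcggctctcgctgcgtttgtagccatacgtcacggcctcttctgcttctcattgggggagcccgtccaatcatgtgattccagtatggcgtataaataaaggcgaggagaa
A match is a description of letters and was not read as a bound site. The stretch before SRSF1 overlaps an exon of AC015813.5, a short gene on the opposite strand that held 36 counts over the 32 libraries. For SRSF2, the exons overlap those of MFSD11 on the opposite strand, and MFSD11 held 3840 counts beside the 54533 of SRSF2. As no source used here states the strand setting of the counting, the values of SRSF2 may include reads of that neighbour.

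Moving from 2D to HoxBan monoculture raised 6 of the 10 genes and lowered SRSF1. Averaged over the 3 lines, 7 of the 10 genes thus passed the test, where 44.6% of the 12849 genes did. The mitochondrial share was 4.49% to 17.1% in 2D and 6.36% to 23.3% in monoculture. A setting added after the data were seen left out the monoculture library of lowest share in each line (libraries 7, 11 and 16). It kept all 2D libraries, so monoculture then ran from 10.7% to 23.3% and the share was not evened out between the cultures. There 4 of the 10 genes passed (SRSF1, SRSF3, SRSF5 and SRSF11), where 5781 of 13066 genes tested did. The count of 4 in 10 is close to that proportion, and SRSF2, SRSF6 and SRSF12 did not pass. With all 28 libraries, SRSF3, SRSF2, SRSF5, SRSF6, SRSF11 and SRSF12 were higher in monoculture, 6 of 10 genes, where 21.4% of all genes were. SRSF1 was the 1 gene that was lower, where 23.3% of all genes were lower. The median log2 fold change was 0.41 over the 10 genes and -0.0081 over all genes tested. The tests were edgeR's quasi-likelihood tests in 1 fit of the 28 libraries, with p-values adjusted by Benjamini-Hochberg over all 12849 genes and a threshold of 0.05. In bulk RNA, fewer cells that express a gene and less RNA of it per cell cannot be told apart. The monoculture libraries also serve as the controls of coculture below, so these comparisons share samples.

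**Figure D1:**
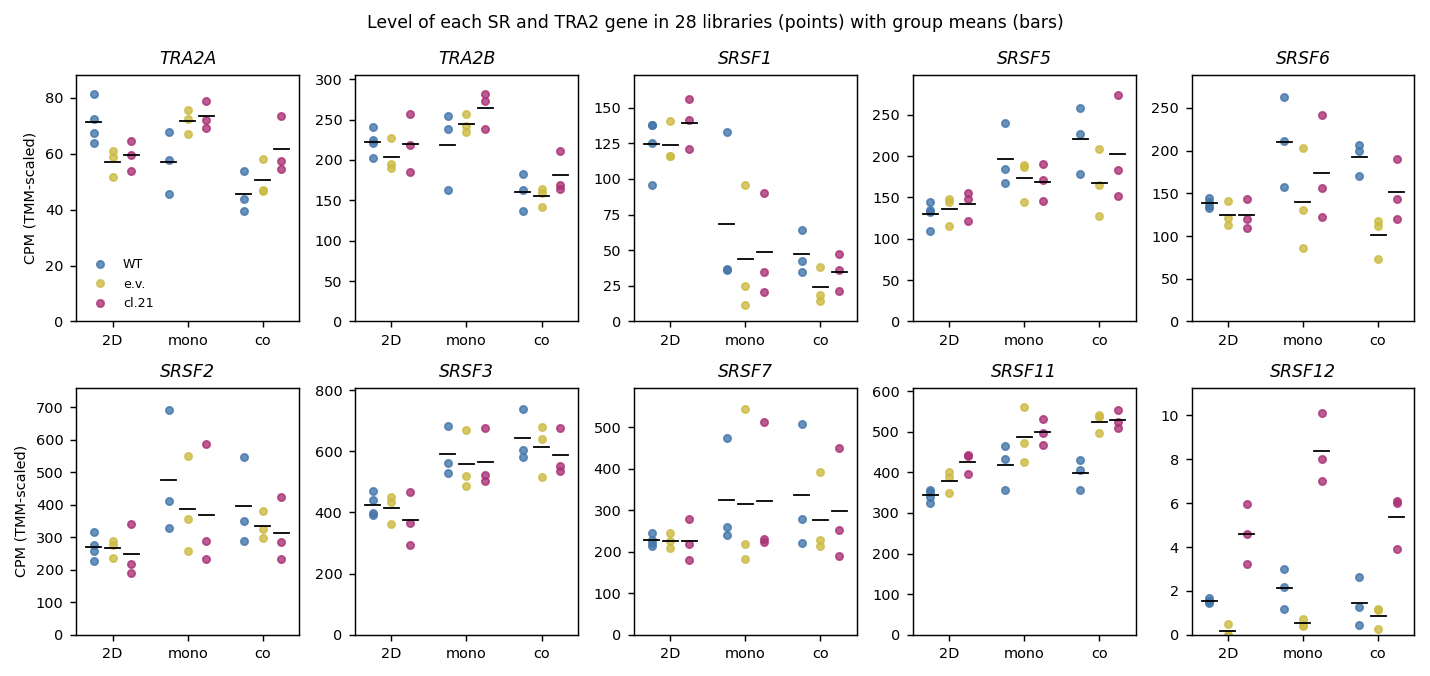
TMM-scaled CPM (vertical axis, from 0) of the 10 genes in 2D, HoxBan monoculture (mono) and coculture (co), with 1 point per library colored by line and a bar at each group mean. SRSF3 lay at 294 to 471 CPM in 2D and at 487 to 739 CPM in the HoxBan libraries shown, SRSF1 lay lower in most HoxBan libraries, and SRSF12 was highest in cl.21 cells.

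SRSF1 (ENSG00000136450, chr17:58003360-58007346, minus strand) encodes the founding member of the family, a regulator of splice site choice with 2 RNA recognition motifs. In 2D it stood at 126, 138, 138 and 96.1 CPM in WT cells, at 116, 141 and 116 CPM in e.v. cells and at 156, 121 and 141 CPM in cl.21 cells. In monoculture it stood at 133, 36.2 and 36.8 CPM in WT cells, at 95.6, 24.7 and 11.4 CPM in e.v. cells and at 34.8, 90.0 and 20.4 CPM in cl.21 cells. The groups did not overlap in e.v. and cl.21 cells, and in WT cells 1 monoculture library lay within the 2D range. Over the mean of the lines SRSF1 was 2.45-fold lower in monoculture, a log2 fold change of -1.29 ± 0.31 (here and below ± is the standard error of the fit) with an adjusted p of 0.0013. Coculture libraries held 14.6 to 64.3 CPM, all below the lowest 2D library. The 4 single WT libraries with inulin or mucin, with and without stool, held 34.8 to 47.4 CPM, within the coculture range.

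Each line had 1 monoculture library in which SRSF1 stood well above the other 2. These were library 16 in WT cells, library 11 in e.v. cells and library 7 in cl.21 cells, and each had the lowest mitochondrial share of its group, 6.36%, 8.52% and 7.91%. Without library 16 the log2 fold change of SRSF1 in WT cells went from -0.85 (adjusted p = 0.289) to -1.77 (adjusted p = 0.0398). Without library 11 the value in e.v. cells went from -1.49 (adjusted p = 0.0536) to -2.78 (adjusted p = 0.00097), and without library 7 that in cl.21 cells went from -1.54 (adjusted p = 0.0478) to -2.33 (adjusted p = 0.0082). With all 3 left out together, the mean over lines was -2.29. Leaving out the highest SRSF1 library of a monoculture group enlarges the fall by construction. These fits show how much the values depend on those libraries, and nothing more is read from them.

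SRSF5 (ENSG00000100650, chr14:69726900-69772005, plus strand) and SRSF6 (ENSG00000124193, chr20:43457928-43464247, plus strand), the other members here with 2 RNA recognition motifs, rose in monoculture. SRSF5 ran from 109 to 155 CPM over the 10 libraries in 2D and from 145 to 239 CPM over the 9 in monoculture. In WT cells its groups did not overlap, with 109 to 145 CPM in 2D against 168, 184 and 239 CPM, and in e.v. and cl.21 cells they did. The mean over lines was higher by 0.40 on the log2 scale (± 0.12, adjusted p = 0.0062). The single WT monoculture libraries with inulin and mucin held 92.9 and 125 CPM, the first below every 2D library and the second within the 2D range. With stool in these media SRSF5 stood at 127 and 177 CPM.

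SRSF6 ran from 109 to 144 CPM in 2D and from 85.9 to 263 CPM in monoculture, where its highest values, 263, 242 and 203 CPM, came from libraries 16, 7 and 11. Its log2 fold change was 0.42 (± 0.14, adjusted p = 0.0194). This call was lost without any 1 of those 3 libraries, at 0.29 to 0.35 (adjusted p 0.0538 to 0.0768), and the value was 0.12 without all 3. SRSF6 in e.v. coculture, at 73.2, 112 and 118 CPM, lay below the 171, 199 and 206 CPM of WT coculture. The single WT monoculture libraries with inulin and mucin held 139 and 152 CPM, against 133 to 144 CPM in WT cells in 2D. With stool in these media SRSF6 stood at 132 and 171 CPM.

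SRSF3 (ENSG00000112081, chr6:36594353-36605600, plus strand), the smallest SR protein and an adaptor for mRNA export, gave the smallest adjusted p of the 10 genes. It stood at 393, 471, 397 and 440 CPM in WT cells in 2D, at 451, 433 and 363 CPM in e.v. cells and at 365, 294 and 467 CPM in cl.21 cells. In monoculture it stood at 682, 530 and 561 CPM in WT cells, at 669, 521 and 487 CPM in e.v. cells and at 522, 675 and 502 CPM in cl.21 cells. Every monoculture library lay above every 2D library. SRSF3 was 1.41-fold higher (log2 0.50 ± 0.10, adjusted p = 0.0002), and without libraries 7, 11 and 16 it still passed the test.

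SRSF2 (ENSG00000161547, chr17:76734115-76737374, minus strand), a protein of the nuclear speckles also called SC35, rose by 0.64 on the log2 scale (± 0.18, adjusted p = 0.0051). Its levels were 226 to 316 CPM in WT cells in 2D against 328, 411 and 692 CPM in monoculture, without overlap. In e.v. cells they were 237 to 290 CPM against 259, 356 and 552 CPM, and in cl.21 cells 190 to 340 CPM against 234, 288 and 588 CPM, both with overlap. Libraries 16, 11 and 7 again held the highest values, and without all 3 the log2 fold change of SRSF2 was 0.24 (adjusted p = 0.201).

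SRSF7 (ENSG00000115875, chr2:38743599-38751494, minus strand), which like SRSF3 acts in both splicing and mRNA export, did not pass the test at a log2 fold change of 0.50 (± 0.22, adjusted p = 0.0618). In monoculture 3 libraries stood apart, with 474 CPM in library 16, 543 CPM in library 11 and 512 CPM in library 7. The other 6 monoculture libraries held 181 to 259 CPM, within or near the 181 to 278 CPM of the 10 libraries in 2D.

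SRSF11 (ENSG00000116754, chr1:70205682-70253052, plus strand), an SR-related protein, rose modestly. It stood at 323 to 357 CPM in WT cells in 2D against 356, 434 and 465 CPM in monoculture. The groups did not overlap in e.v. cells, with 348 to 401 CPM against 425, 472 and 562 CPM, or in cl.21 cells, with 395 to 443 CPM against 466, 497 and 532 CPM. Its log2 fold change was 0.29 (± 0.07, adjusted p = 0.0017). Unlike SRSF2, SRSF3 and SRSF7, it was highest in library 16, 11 or 7 in no group.

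**Figure D2:**
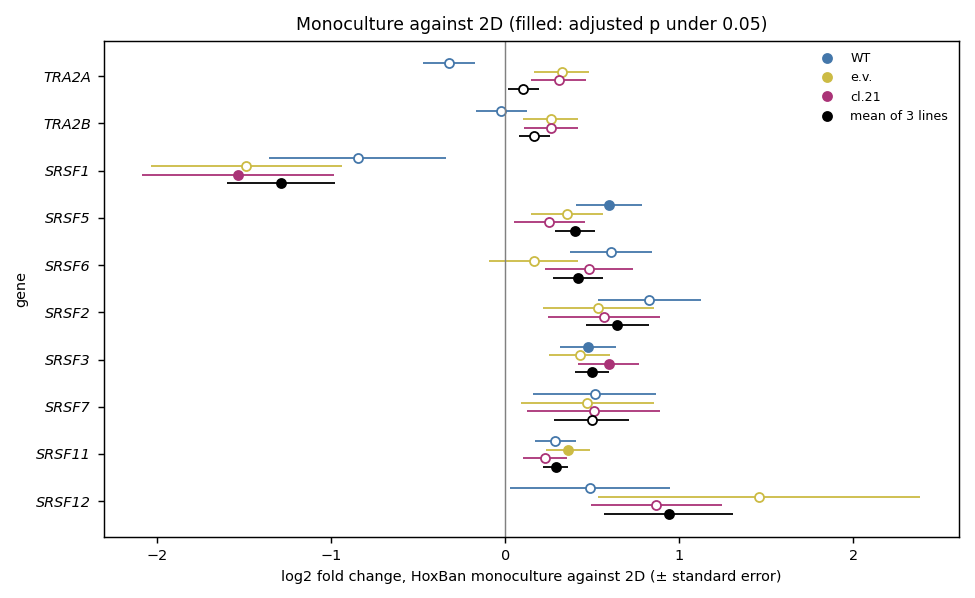
Log2 fold change of HoxBan monoculture against 2D (horizontal axis) with its standard error, for each gene in WT, e.v. and cl.21 cells and over the mean of the 3 lines, filled where the adjusted p is under 0.05. Over the mean of the lines SRSF1 lies at -1.29 and the other 9 genes lie between 0.10 (TRA2A) and 0.94 (SRSF12).

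Within single lines, each with 3 monoculture libraries, fewer genes passed. In WT cells 2 of 10 passed (SRSF5 at 0.59 and SRSF3 at 0.47), where 14.8% of all genes did. When each of the 28 libraries was left out in turn, the call of SRSF3 was lost in 18 fits (0.36 to 0.55) and that of SRSF5 in 5 (0.41 to 0.64). In e.v. cells 1 of 10 passed (SRSF11 at 0.36), where 21.6% of all genes did, and its call was lost in 12 such fits (0.24 to 0.40). In cl.21 cells 2 of 10 passed (SRSF1 at -1.54 and SRSF3 at 0.59), where 20.1% of all genes did. There the call of SRSF1 was lost in 16 fits (-1.63 to -1.17) and that of SRSF3 in 3 (0.44 to 0.57). Counts of 1 or 2 in 10 are close to these shares. Whether the step from 2D to monoculture differed between the lines was tested directly by an F test in the same edgeR fit. None of the 10 genes passed, where 0% of all genes did (380 genes had an unadjusted p under 0.05, DESeq2 called 0, and edgeR without the filter on low counts called 44). The nearest of the 10 was TRA2A, with log2 fold changes of -0.32 in WT, 0.32 in e.v. and 0.31 in cl.21 cells (unadjusted p = 0.0082, adjusted p = 0.9999).

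TRA2B (ENSG00000136527, chr3:185915906-185938136, minus strand), the broadly expressed TRA2 protein, binds GA-rich exonic enhancers. In monoculture it stood at 254, 238 and 163 CPM in WT cells, at 242, 235 and 256 CPM in e.v. cells and at 238, 273 and 281 CPM in cl.21 cells. In coculture it stood at 163, 137 and 182 CPM in WT cells, at 159, 142 and 164 CPM in e.v. cells and at 169, 164 and 211 CPM in cl.21 cells. The cultures did not overlap in e.v. and cl.21 cells, and overlapped in WT cells through library 29 of monoculture at 163 CPM. As a description, the log2 difference of coculture from monoculture was -0.44 in WT, -0.66 in e.v. and -0.54 in cl.21 cells, and -0.55 (± 0.09) over the mean of the lines.

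TRA2A (ENSG00000164548, chr7:23504780-23532041, minus strand), the paralog of TRA2B, moved the same way, by -0.36 (± 0.09) over the mean of the lines. Its levels were 45.5 to 67.6 CPM in WT monoculture and 39.5 to 53.8 CPM in WT coculture, 66.9 to 75.4 CPM against 46.6 to 58.2 CPM in e.v. cells, and 69.2 to 78.8 CPM against 54.5 to 73.4 CPM in cl.21 cells. The e.v. groups alone were apart. Both TRA2 genes were past the threshold as lower, 2 of the 10, where 1.18% of all genes were; the comparison chose TRA2B, so nothing is read from this count. Across 33 other settings the difference ran from -0.61 to -0.50 for TRA2B and from -0.40 to -0.31 for TRA2A. TRA2B was past the threshold in 33 of these settings, and TRA2A in 11.

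The other 8 genes gave coculture differences between -0.63 (SRSF1, ± 0.32) and 0.12 (SRSF5, ± 0.12). Without libraries 7, 11 and 16 of monoculture 4 of them turned sign, SRSF1 from -0.63 to 0.37, SRSF7 from -0.08 to 0.43, SRSF2 from -0.24 to 0.17 and SRSF6 from -0.27 to 0.03. That fit kept libraries 3, 22 and 21, the coculture libraries of lowest mitochondrial share. The libraries left out held the highest monoculture levels of these 4 genes in each line. Leaving them out of monoculture alone raises the differences by construction, so no reversal is read from them. In no single line was any of the 10 past the threshold, where 0% of all genes were in each line by edgeR. At an unadjusted p under 0.05 there were 555 genes in WT, 791 in e.v. and 908 in cl.21 cells, and DESeq2 called 0, 0 and 4. Whether the coculture difference itself varied between the lines was also tested. None of the 10 genes passed, where 0% of all genes did (89 genes had an unadjusted p under 0.05, DESeq2 called 0, and edgeR without the filter called 3).

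Against 2D, neither TRA2 gene passed the test in monoculture. TRA2B stood at 185 to 257 CPM over the 10 libraries in 2D, with a log2 fold change in monoculture of 0.17 (± 0.09, adjusted p = 0.132). It passed without library 29 of WT monoculture, at 0.23 (adjusted p = 0.0275). TRA2B was chosen by comparing coculture with these same monoculture libraries. Its test against 2D is therefore not independent of the choice, and nothing is read from that call. TRA2A gave 0.10 (± 0.09, adjusted p = 0.367). Its values in 2D lay below all 3 monoculture libraries in e.v. cells (51.5 to 61.1 CPM against 66.9 to 75.4). The same held in cl.21 cells (53.9 to 64.6 CPM against 69.2 to 78.8). WT cells went the other way with overlap, at 63.8 to 81.2 CPM in 2D and 45.5 to 67.6 in monoculture.

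**Figure D3:**
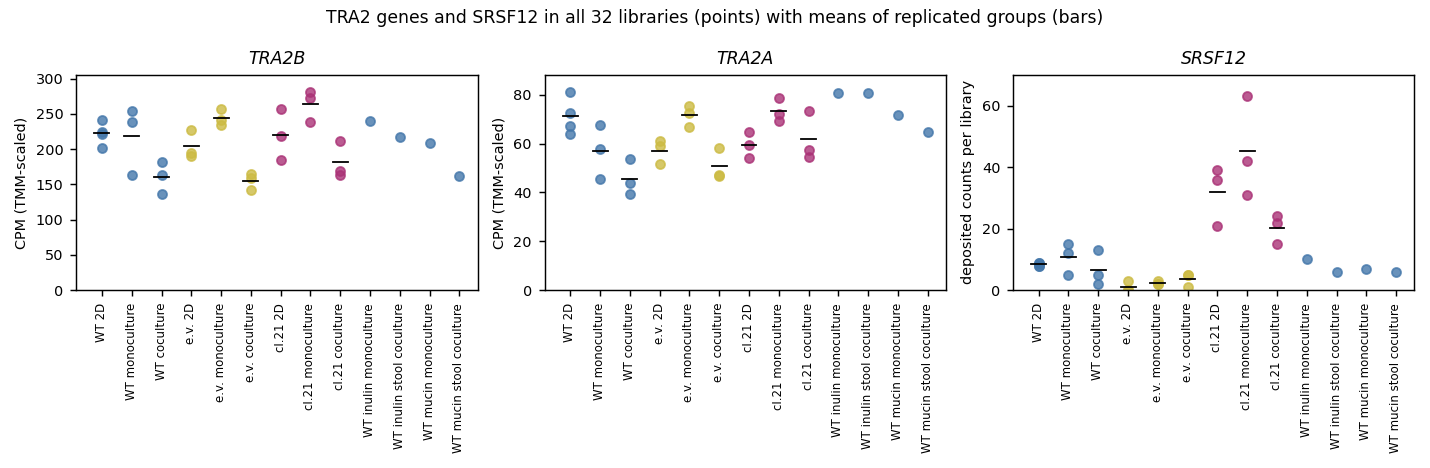
TRA2B and TRA2A in TMM-scaled CPM and SRSF12 in deposited counts per library (vertical axes, from 0) for every library, grouped along the horizontal axis by line and culture, with bars at the means of replicated groups. TRA2B in e.v. coculture, at 142 to 164 CPM, lies below e.v. monoculture at 235 to 256 CPM, and SRSF12 reaches 15 to 63 counts in cl.21 libraries against 0 to 15 in all others.

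With stool in place of F. prausnitzii, the single libraries allow no test. TRA2B stood at 240 CPM with inulin and 217 CPM with inulin and stool, and at 209 CPM with mucin and 161 CPM with mucin and stool. On the scale of log2(CPM + 0.5) these are steps of -0.14 and -0.37. None of the 10 genes moved at least 0.58 the same way in both media, where 3.67% of all genes did. SRSF5 came nearest among the genes that rose, with steps of 0.45 and 0.50, from 92.9 to 127 CPM and from 125 to 177 CPM.

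SRSF12 (ENSG00000154548, chr6:89095959-89118081, minus strand), which opposes the classical SR proteins in splicing assays, was the least certain of the 10 because its counts were low. In cl.21 cells it stood at 5.96, 4.59 and 3.25 CPM in 2D, at 10.1, 7.01 and 8.01 CPM in monoculture and at 6.02, 3.91 and 6.11 CPM in coculture. In WT cells it ran from 0.462 to 3.02 CPM over 10 libraries (2 to 15 counts each), and in e.v. cells from 0 to 1.19 CPM over 9 libraries (0 to 5 counts each). Every cl.21 library thus lay above every WT and e.v. library. WT lay above e.v. without overlap in 2D and in monoculture, and the 2 lines overlapped in coculture.

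As a description, SRSF12 differed by 3.70 (± 0.33) on the log2 scale between cl.21 and e.v. cells over the mean of the 3 cultures, and by 1.78 (± 0.25) between cl.21 and WT cells. Over the other settings the first ran from 3.52 to 4.70, with the highest value without library 26, which held the only 3 counts of the e.v. group in 2D, and the second from 1.64 to 2.05. It was the 1 gene of the 10 past the threshold against e.v., where 8.75% of all genes were, and with SRSF11 at 0.33 (± 0.07) made 2 of 10 against WT, where 14.4% were. These lines were part of the choice of SRSF12, so nothing is read from these counts. Between e.v. and WT cells, neither of which received the HIF1A guide, SRSF12 differed by -1.92 (± 0.38), and by -2.92 without library 26. In the comparison that was not used to choose it, monoculture against 2D, SRSF12 was 1.92-fold higher (log2 0.94 ± 0.37, adjusted p = 0.0414). That call was lost without any 1 of 11 of the 28 libraries (log2 0.76 to 0.96, adjusted p 0.0507 to 0.106). Without library 26 the log2 value was 1.93 (adjusted p = 0.0035). The e.v. libraries left in 2D are then both at 0 counts, so the fitted size depends on the prior count. In no single line did SRSF12 pass, with 0.49 in WT (adjusted p = 0.529), 1.46 in e.v. (adjusted p = 0.278) and 0.87 in cl.21 cells (adjusted p = 0.107). With library 26 kept, the e.v. value rests on 3 counts in 2D and 7 in monoculture.

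The e.v. line was also compared with WT cells over the mean of the 3 cultures, both without the HIF1A guide. Of the 9 genes tested, which leave out SRSF12, 2 passed, where 14.6% of all genes did. SRSF6 was lower in e.v. cells, at a log2 difference of -0.55 (± 0.14, adjusted p = 0.0102). SRSF11 was higher, at 0.25 (± 0.07, adjusted p = 0.0168). TRA2B gave -0.0048 (± 0.09), and the remaining 6 genes ran from -0.54 (SRSF1, ± 0.31, adjusted p = 0.263) to 0.05 (TRA2A).

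Within the HoxBan groups, several SR genes moved with the mitochondrial share of the counts. SRSF2, SRSF3 and SRSF7 were highest in the library of lowest mitochondrial share in 6 of the 6 HoxBan groups, and SRSF1 and SRSF6 in 5 of 6. Of all genes tested, 872 (6.79%) did so in 6 of 6. SRSF11 did so in 0 of 6, TRA2A, SRSF5 and SRSF12 in 1 and TRA2B in 2. The library of lowest share instead held the lowest level in 4 of 6 groups for TRA2A, SRSF5 and SRSF12. For SRSF11 this was so in 3 groups and for TRA2B in 1. The proportion of all genes was counted for the highest level in 6 of 6 only. In coculture, SRSF7 stood at 508 CPM in WT library 3 (mitochondrial share 7.79%) against 222 and 279 CPM in the others of that group (20.4% and 18.5%).

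In e.v. coculture SRSF7 held 392 CPM in library 22 (10.5%) against 213 and 227 CPM, and in cl.21 coculture 449 CPM in library 21 (12.1%) against 191 and 253 CPM. In 2D the pattern did not show for SRSF1, which was highest in the library of lowest share in 0 of 3 groups. SRSF2, SRSF3 and SRSF7 were highest there in 1 of 3 groups each and SRSF6 in 2 of 3. SRSF3 was lowest there in 2 of 3 groups. The 2D libraries at 14.1%, 15.3% and 17.1% held 138, 156 and 141 CPM of SRSF1, while the HoxBan libraries between 13.3% and 23.6% held 11.4 to 47.6 CPM. At low shares, HoxBan libraries 3, 7 and 11 (7.79%, 7.91% and 8.52%) held 64.3, 90.0 and 95.6 CPM. These lay below the lowest 2D library at 96.1 CPM, and library 16 (6.36%) at 133 CPM did not. The single inulin and mucin libraries, at 7.29% to 9.04%, held 34.8 to 47.4 CPM. With the mitochondrial share as a covariate, 7 of the 10 genes passed between monoculture and 2D, where 6490 of 12849 genes did. SRSF7, at 0.66, came in and SRSF12, at 0.89, dropped out. The part of the mitochondrial share in the results was not tested further.

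**Figure D4:**
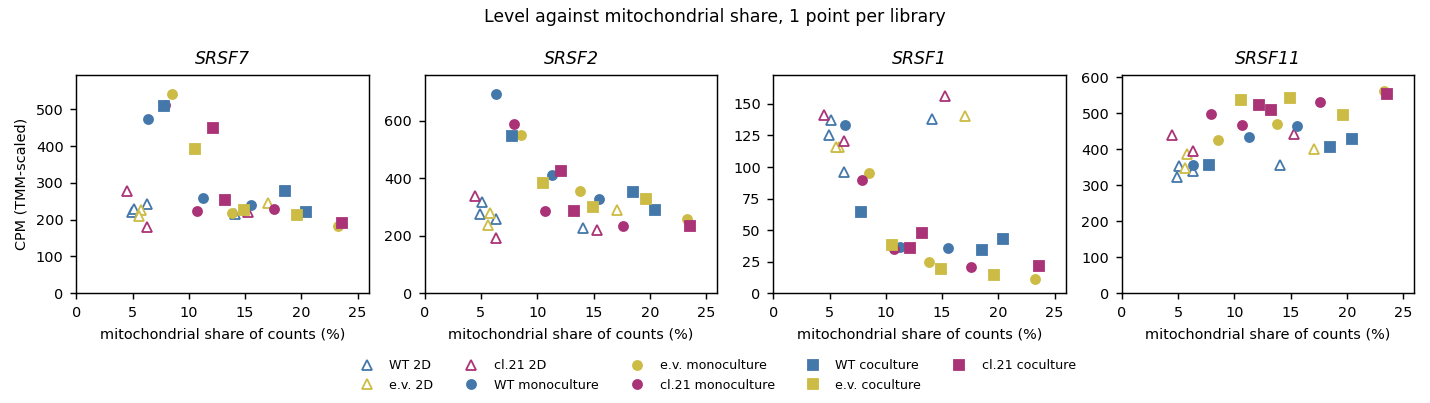
TMM-scaled CPM (vertical axis, from 0) of SRSF7, SRSF2, SRSF1 and SRSF11 against the mitochondrial share of the counts in percent (horizontal axis), with 1 point per library, colored by line and shaped by culture. SRSF7 and SRSF2 are highest in HoxBan libraries of low share, and SRSF11 shows no such highs. SRSF1 lies below all 2D libraries in every HoxBan library shown, of low or high share, except library 16. That library, at a share of 6.36%, lies within the 2D range.

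Other genes of splicing regulation were counted in the same contrast of monoculture against 2D over the mean of the lines, where 44.6% of all genes passed. Of the 4 other SR proteins, SRSF10 (0.44, adjusted p = 0.0004) and SRSF4 (0.20, adjusted p = 0.0372) rose, SRSF8 fell (-0.37, adjusted p = 0.0231), and SRSF9 did not pass at -0.07. Of 8 SR protein kinases tested, 3 rose and 2 fell. CLK2 fell by 1.02 on the log2 scale (adjusted p = 3.0e-07) and DYRK1A by 0.44, while CLK3 (0.69) and CLK1 (0.48), related dual-specificity kinases that release SR proteins from speckles, rose. The median over the kinases was 0.02, near that of all genes.

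Among 25 SR-related genes, mostly for coactivators and spliceosome parts but including TNPO3, the nuclear import receptor of SR proteins, 9 rose and 6 fell. SRRM1 (0.70), RBM25 (0.80), PNN (0.79) and LUC7L (0.73) had the smallest adjusted p-values of the list, up to 0.00067. Of 27 hnRNP proteins, which often oppose SR proteins at exons, 7 rose and 4 fell. HNRNPDL (0.71) and HNRNPA1 (0.38) were higher, and HNRNPUL1 (-0.78) and HNRNPH3 (-0.97) were lower.

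Of 10 factors of nonsense-mediated decay, 2 rose and 3 fell, with SMG5 at -0.59, SMG8 at -1.11 and SMG6 at -0.42. SMG5 and SMG6 act on the transcripts marked for decay, and SMG8 restrains the kinase SMG1. Of 11 other splicing regulators tested, 1 rose (KHDRBS1, 0.22) and 5 fell, among them CELF1 (-0.30), RBM47 (-0.54), an epithelial RNA-binding protein, and RBFOX2 (-0.27). Of 10 enterocyte markers tested, CDX2, an intestinal transcription factor, was the 1 that changed, at -0.78 (adjusted p = 4.2e-05). These lists moved in both directions, and their medians ran from -0.26 (other splicing regulators) to 0.12 (hnRNP proteins).

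The annotation gives each of the 10 genes at least 1 transcript marked for nonsense-mediated decay, against 43.7% of 11498 coding genes tested. Transcripts per gene differ in number, from 2 for SRSF6 to 19 for SRSF5, and the shares were not adjusted for that number. Among 9957 genes with a mean of at least 5 CPM, those whose log2(CPM + 0.5) followed TRA2B most closely over the 28 libraries were RBM38 (Pearson's r 0.80), TRA2A (0.73), MAFK (0.72), LINC02878 (0.71) and DUSP7 (0.70). For SRSF12 they were RAB31 (0.92), DZIP1 (0.81), STK24 (0.80), DPYSL5 (0.78) and ACER3 (0.78). These points share libraries, depth and, for SRSF12, the single clone cl.21, so the values of r are descriptions.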

How the data were processed

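RNA of Caco-2 cells was sequenced with the QuantSeq 3′ kit, and the authors deposited raw counts per Ensembl gene on GRCh38 for 32 libraries. No source used here names the annotation release, the aligner or how and on which strand reads were counted. Symbols came from an identifier table (56104 rows) and GENCODE release 29 (427 rows), which also gave gene spans, and rows without a name held 0.0679% of counts. QuantSeq reads carry no molecular identifiers, so precision from depth covers counting error only. Groups followed the genotype and treatment labels.

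From the deposited counts, CPM were computed with TMM over 32 libraries. The 28 libraries of 9 groups were fitted together with edgeR (quasi-likelihood, edgeR's filter on low counts by group, 12849 genes, 19 residual degrees of freedom and a biological variation coefficient of 0.201), two-sided, with Benjamini-Hochberg adjustment at 0.05. Standard errors are the log2 fold change divided by the square root of F. The 10 genes, the other gene lists and the marker lists were chosen with earlier results of these data known. Named genes of the splicing lists are the up to 4 with the smallest adjusted p in monoculture against 2D; the genes most like TRA2B and SRSF12 are the 5 of highest Pearson correlation. CDX2 and COL1A1 were named after their values were seen. A gene that the naming rule would include is not reported here. The single libraries were compared without a test. No replicate pair of the 30 compared was a duplicate, with a chi-square per degree of freedom of at least 4.04.

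Alternatives were upper-quartile factors, DESeq2, no filter, the mitochondrial share (37 genes) as a covariate, only the 2 groups compared, edgeR's exact test, and leaving out each library. The fit without libraries 7, 11 and 16 was added after the data were seen. The steps were tested on simulated counts. Models were fitted in R 4.3.3 (DESeq2 1.42.0, edgeR 4.0.16, limma 3.58.1). Tables and figures were made in Python 3.11.15 (matplotlib 3.10.9, numpy 2.4.6, pandas 2.3.3).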

Additional observations from a re-analysis of the deposited data

How the results depend on the processing

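Of 2366 values of the 10 genes under alternatives, 2234 kept their direction and side of the threshold, 83 lost the call, 49 gained it and 0 reversed, and 20 values that were not called changed sign. The count of genes that passed between monoculture and 2D over the mean of the lines, 7, ran from 5 to 8 when each library was left out and was 4 without libraries 7, 11 and 16. In WT cells the count was 2, with 0 to 4 when each library was left out and 4 with DESeq2, the exact test, only the 2 groups, no filter or the mitochondrial covariate. In e.v. cells it was 1, with 0 to 2 when each was left out, 3 with the covariate, 2 with DESeq2, 0 with only the 2 groups or the exact test and 2 without the 3 libraries. In cl.21 cells it was 2, with 0 to 2 when each was left out, 1 with DESeq2 and 1 without the 3 libraries. Between e.v. and WT cells it was 2, with 2 to 3 when each was left out, and the counts for differences between lines were 0 in every such fit. The causes were not tested.

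Leaving out single libraries ended or made these calls. SRSF12 over the mean of the lines lost its call, at 0.76 to 0.96, without library 2, 8, 12, 23, 31 or 32 of 2D or 4, 15, 16, 25 or 29 of monoculture. SRSF7 gained one, at 0.50 to 0.59, without library 3, 4, 15, 19, 24 or 25, and passed with DESeq2 (0.52), the covariate (0.66) and no filter (0.49). SRSF6 lost its call without library 7, 11 or 16 (0.29 to 0.35), and TRA2B gained one without library 29 (0.23). SRSF11 over the mean of the lines lost its call with no filter alone (0.27). In single lines, SRSF3 in WT cells lost its call without any of 18 libraries (0.36 to 0.55), SRSF5 in WT cells without library 5, 12, 19, 27 or 29 (0.41 to 0.64), SRSF11 in e.v. cells without any of 12 (0.24 to 0.40), SRSF1 in cl.21 cells without any of 16 (-1.63 to -1.17) and SRSF3 in cl.21 cells without library 1, 2 or 7 (0.44 to 0.57). Calls were gained in WT cells by SRSF1 and SRSF11 without library 16 (-1.77 and 0.39), SRSF2 without library 3, 7, 11 or 19 (0.83 to 1.04) and SRSF6 without library 11 (0.61), and in e.v. cells by SRSF1 without library 7, 11, 16, 19, 22 or 24 (-2.78 to -1.49) and SRSF12 without library 26 (4.44, fitted against 0 counts in 2D). SRSF1 gained a call between e.v. and WT cells without library 11 (-0.98). SRSF1, SRSF2, SRSF3, SRSF5 and SRSF11 over the mean of the lines passed in all 28 fits that left out 1 library.

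No paired analysis was possible because each library carries its own number in the labels and no number is shared between groups. Depth limits SRSF12 most, with at most 5 counts in any e.v. library. Upper-quartile factors moved the median of all genes by less than 0.1 on the log2 scale.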
